A study of Homo sapiens with 6 samples.

Results

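The genes examined were HSPA5, HSP90B1, CALR, PDIA4, SDF2L1, DNAJB9, HERPUD1, ERN1, ATF6 and XBP1, which encode chaperones, folding enzymes and stress sensors of the endoplasmic reticulum (ER). They were taken by symbol from the deposited gene table, and all 10 were found among its 19973 genes. All 10 also had enough reads to be tested, as did 12874 genes in all. RNA was sequenced from OVCAR3, an established ovarian carcinoma line, in cells that carried either the control hairpin shNC (3 libraries) or shNUF2, a hairpin against the kinetochore gene NUF2 (3 libraries). Hairpins were delivered by transfection of plasmids that carry a puromycin marker, and 1 hairpin was used against NUF2. Stable lines were also made in the study, but whether the sequenced cells were stable lines is not stated. Neither the labels nor the methods say whether the libraries of a group came from separate cultures, so p-values measure only the spread between these libraries, which may be technical.

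The ER is where secreted and membrane proteins are folded, and a shortage of folding capacity there starts the unfolded protein response. The sensors of this response sit in the ER membrane. IRE1 (the product of ERN1) splices the XBP1 transcript, ATF6 is cleaved in the Golgi to release a transcription factor, and PERK (EIF2AK3) slows translation and favours the factor ATF4. ATF6 and spliced XBP1 are known to act on ER stress response elements in the promoters of chaperone genes. Ovarian carcinoma cells secrete large amounts of protein and are known to depend on this machinery. Gene-level read counts add spliced and unspliced XBP1 together and do not measure the cleavage of ATF6 or the phosphorylation of IRE1 and PERK.

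The promoters are shown first because ER stress response elements are known from the promoters of chaperone genes. The 250 bases before the start of each gene were taken from RefSeq on GRCh38.p14, where all 10 genes were matched by symbol. The element ERSE (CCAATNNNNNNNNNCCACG, searched on both strands) was found before 4 of the 10 genes, namely HSPA5, HSP90B1, XBP1 and CALR, and before 0.074% of the 35116 promoters in the table. The shorter element ERSE-II (ATTGGNCCACG, both strands), which is made of the same pair of motifs in another arrangement, was found before HERPUD1 and SDF2L1 and before 0.0513% of all promoters. Neither element was found before DNAJB9, PDIA4, ERN1 or ATF6. The ATF4 element TTGCATCA was found before HERPUD1 alone of the 10 genes and before 0.772% of promoters, and the core TGACGTG of the element bound by XBP1 before 0 of the 10 genes and 1.68% of promoters. These are matches of letters and not measured binding sites.

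The stretches that hold the ER stress response elements are printed 5′ to 3′ on the strand of the gene, with the element in capitals. They lie at chr9:125241344-125241593 (minus strand) for HSPA5, chr12:103930211-103930239 and chr12:103930316-103930344 (plus strand) for HSP90B1, chr22:28800598-28800819 (minus strand) for XBP1, chr19:12938359-12938577 (plus strand) for CALR, chr16:56931892-56932047 (plus strand) for HERPUD1 and chr22:21642052-21642260 (plus strand) for SDF2L1. Bases annotated as exons on the same strand in GENCODE release 29 were left out, and the elements of HSP90B1, which lie in such exons, are given with 5 bases on each side.
HSPA5: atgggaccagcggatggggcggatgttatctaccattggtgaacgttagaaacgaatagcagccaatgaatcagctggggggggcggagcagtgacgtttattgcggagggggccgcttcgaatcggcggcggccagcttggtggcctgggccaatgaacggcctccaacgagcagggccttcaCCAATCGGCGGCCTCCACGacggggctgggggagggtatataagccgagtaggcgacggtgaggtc
HSP90B1: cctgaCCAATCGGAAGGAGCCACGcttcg
HSP90B1: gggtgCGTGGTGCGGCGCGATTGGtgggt
XBP1: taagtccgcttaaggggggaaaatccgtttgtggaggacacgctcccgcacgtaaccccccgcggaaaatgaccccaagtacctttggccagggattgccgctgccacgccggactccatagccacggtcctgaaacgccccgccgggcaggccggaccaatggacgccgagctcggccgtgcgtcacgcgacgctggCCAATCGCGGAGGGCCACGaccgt
CALR: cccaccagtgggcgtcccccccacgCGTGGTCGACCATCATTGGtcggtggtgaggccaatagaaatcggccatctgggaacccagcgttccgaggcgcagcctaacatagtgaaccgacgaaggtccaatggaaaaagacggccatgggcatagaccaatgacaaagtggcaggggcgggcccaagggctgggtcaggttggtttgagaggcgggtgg
HERPUD1: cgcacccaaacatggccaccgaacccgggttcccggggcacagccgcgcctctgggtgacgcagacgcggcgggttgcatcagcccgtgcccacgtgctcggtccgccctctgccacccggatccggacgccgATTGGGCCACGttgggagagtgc
SDF2L1: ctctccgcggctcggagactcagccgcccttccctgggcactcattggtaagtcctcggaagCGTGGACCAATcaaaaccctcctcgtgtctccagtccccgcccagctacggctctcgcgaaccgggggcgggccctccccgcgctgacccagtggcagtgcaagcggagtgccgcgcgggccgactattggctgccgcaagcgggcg

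**Figure D1:**
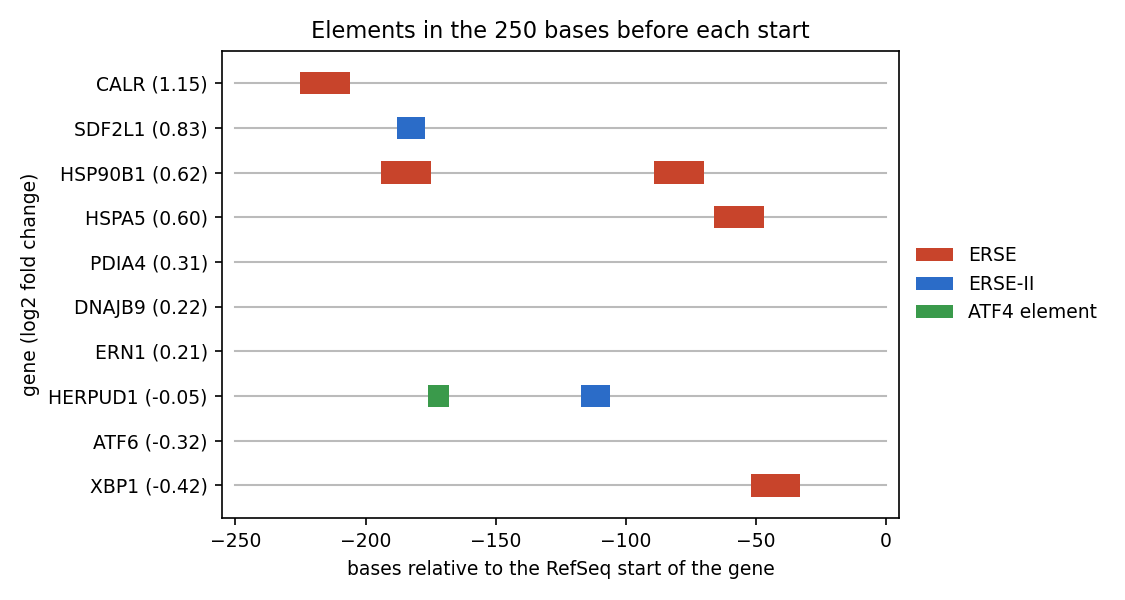
Position of ERSE, ERSE-II and ATF4 element matches in the 250 bases before the start of each gene, in bases relative to the RefSeq start. Genes are ordered by their log2 fold change between shNUF2 and shNC, given in brackets, and the genes with an ER stress response element range from CALR at 1.15 to XBP1 at -0.42.

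The genes with these elements did not all move in the same direction. CALR, HSP90B1, HSPA5 and SDF2L1 were higher with shNUF2, HERPUD1 did not pass the test and XBP1 was lower. Of the genes without either element, DNAJB9, PDIA4 and ERN1 were higher and ATF6 was lower. Outside the 10 genes, 12 of the genes tested had an ERSE in the same window. Of these, 6 were higher and 3 lower at an adjusted p under 0.05, against 33.5% and 34.3% of the 10297 genes tested that had a promoter in the table. The 6 higher genes include CRELD2, an ER chaperone cofactor (log2 fold change 0.97), and PDIA6, a disulfide isomerase (0.50). The 3 lower genes were ALG12 (-0.52), SYNPO (-0.42) and CANX, the membrane-bound lectin chaperone calnexin (-0.19). CRELD2, PDIA6 and the lower genes were chosen for naming after their values were seen.

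Total read counts per library ranged from 14115009 to 16995452 with shNC and from 13057534 to 15227460 with shNUF2. Read counts of NUF2 itself were 903, 1096 and 1092 with shNC and 281, 290 and 384 with shNUF2, which left it at 35.2% of its control level. Of 10 marker genes of ovarian carcinoma epithelium, CLDN3 had 0 reads in every library and WT1 at most 7 reads, whereas the other 8 were detected and tested. The summed level of the 10 markers was 3735 to 4027 FPKM (reads scaled to gene length and library total) with shNC and 3086 to 3225 with shNUF2, and most of it came from FOLR1. PAX8, MUC16 and EPCAM were low, with means of 1.39, 1.12 and 1.41 FPKM with shNC and 2.11, 0.651 and 2.21 with shNUF2. Of the 8 tested markers 4 were higher (KRT8, KRT18, PAX8 and EPCAM) and 4 lower (FOLR1, MSLN, MUC16 and KRT7) at an adjusted p under 0.05 by edgeR. Markers of other cell types were low but also differed between the groups. Their summed levels were 9.44 to 10.1 FPKM with shNC and 7.30 to 8.05 with shNUF2 for 4 fibroblast genes, 0.431 to 0.883 and 1.38 to 2.08 for 4 leukocyte genes, and 0.226 to 0.439 and 0.462 to 0.679 for 3 endothelial genes. The fibroblast sum was mostly COL1A1, which was lower, whereas DCN was higher (log2 fold changes -0.39 and 1.22, edgeR adjusted p = 1.23e-06 and 7.00e-06). The part of these differences in the results was not tested.

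To ask whether NUF2 knockdown went with a change in ER folding genes, the 6 libraries were compared by edgeR's quasi-likelihood test with adjustment over the 12874 genes. With shNUF2, 7 of the 10 genes were higher and 2 were lower at an adjusted p under 0.05, and HERPUD1 did not pass. In bulk RNA, a change in the share of cells that express a gene and a change in RNA per cell cannot be told apart. Across all genes tested, 33.9% were higher and 33.8% lower by the same rule. The median log2 fold change of the 10 genes was 0.26, against -0.01 for all genes tested. The 6 chaperones and co-chaperones among the 10 genes were all higher. The sensor gene ERN1 was also higher, while XBP1 and ATF6, which encode transcription factors of the response, were lower. Among 18 other tested ER chaperones and folding enzymes, described below, 11 were higher and 5 lower. The groups of libraries did not overlap for 9 of the 10 genes, 7 with higher and 2 with lower values, where 35.2% of all genes were entirely higher and 35.4% entirely lower. With the thresholds of the study's methods, read as more than 1 on the log2 scale in either direction with p under 0.05 before adjustment, only CALR of the 10 genes was called higher by edgeR and 0 were called lower, counts that DESeq2 and limma also gave. By that rule 9.41% of all genes were higher and 4.16% lower, so that the 1 call among 10 genes is near the background share.

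**Figure D2:**
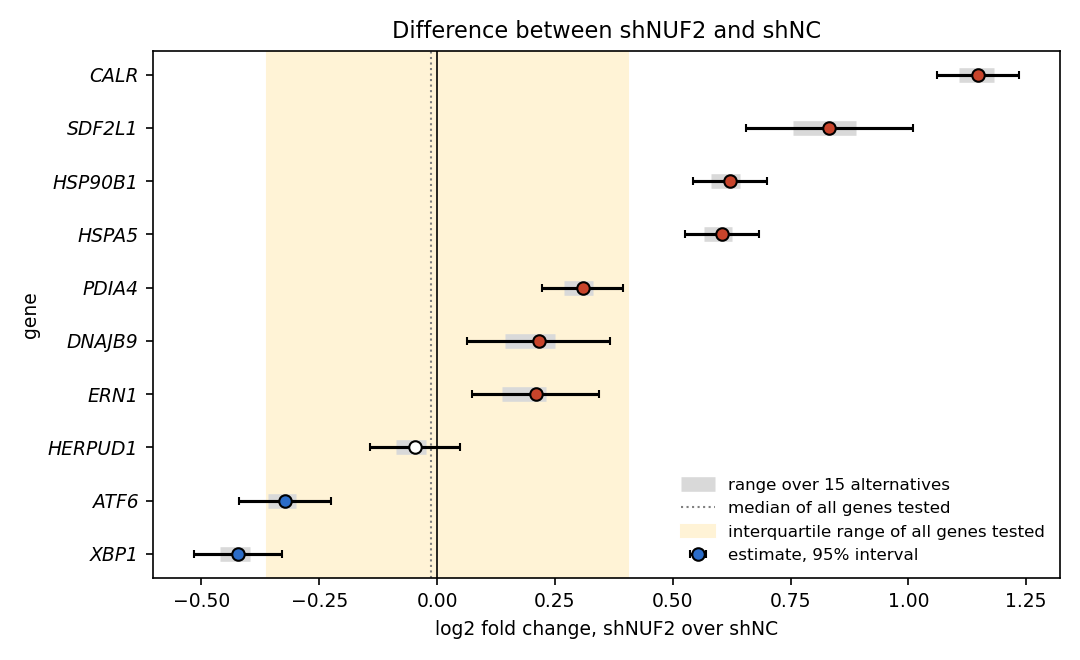
Log2 fold change of each gene between shNUF2 and shNC (points, with 95% intervals from edgeR), the range of the same value over 15 alternative analyses (grey bars) and the interquartile range of all genes tested (shaded). Filled points passed an adjusted p of 0.05, with CALR, SDF2L1, HSP90B1 and HSPA5 to the right of the shaded band and XBP1 to the left of it.

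Of the 10 genes, HSPA5, HSP90B1, CALR and PDIA4 encode chaperones and folding enzymes of the ER lumen, and these 4 were higher, by log2 fold changes from 0.31 for PDIA4 to 1.15 for CALR. HSPA5 (ENSG00000044574, chromosome 9, minus strand, 125234853 to 125241343 in the deposited table) encodes BiP, the HSP70 chaperone that binds unfolded chains and holds the sensors inactive. It had normalized counts of 1840.1, 1858 and 1763 CPM (counts scaled to library size, with TMM factors) in the shNC libraries and 2804, 2796 and 2705 in the shNUF2 libraries. The groups were fully separate, and the means were 1820.4 ± 50.4 and 2769 ± 55.2 CPM (SD, n = 3 each). The log2 fold change was 0.60 (SE 0.04, adjusted p = 1.91e-13), which is 1.52-fold.

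HSP90B1 (ENSG00000166598, chromosome 12, plus strand, 103930107 to 103953645) encodes GRP94, the HSP90 of the ER. Its normalized counts were 929, 912 and 924 CPM with shNC and 1404, 1441 and 1407 CPM with shNUF2. The libraries within each group were nearly level and the groups were far apart, with a log2 fold change of 0.62 (SE 0.04, adjusted p = 1.02e-13). The gene overlaps C12orf73 on the other strand, and the strand setting of the counting is not given in the sources used here. C12orf73 was far less abundant, at 12.7 ± 0.283 CPM with shNC and 11.6 ± 0.384 with shNUF2 (SD, n = 3). The annotation also lists 2 pseudogenes, HSP90B2P and HSP90B3P, with which reads could be shared.

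CALR (ENSG00000179218, chromosome 19, plus strand, 12938578 to 12944489) encodes calreticulin, the calcium-binding lectin chaperone of glycoproteins. It had 693, 631 and 649.8 CPM with shNC and 1432, 1487 and 1453 CPM with shNUF2. The lowest shNUF2 value was 1432 and the highest shNC value 693, and the fold change was 2.22 (log2 fold change 1.15, SE 0.04, adjusted p = 1.70e-18). CALR thus had the largest change of the 10 genes, above 92.5% of all genes tested. An antisense transcript, AC092069.1, overlaps it on the other strand and was not analysed here.

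PDIA4 (ENSG00000155660, chromosome 7, minus strand, 149003062 to 149028662) encodes the disulfide isomerase ERp72, which works in a complex with BiP. It had 281, 284 and 281 CPM with shNC and 354, 357 and 338 CPM with shNUF2. The groups did not overlap, but the difference was smaller than for the other lumenal chaperones, with a log2 fold change of 0.31 (SE 0.04, adjusted p = 2.98e-07).

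Among the 10 genes, SDF2L1 and DNAJB9 encode cofactors of BiP, and both were higher. SDF2L1 (ENSG00000128228, chromosome 22, plus strand, 21642302 to 21644299), which supports the chaperone cycle of BiP, had 22.7, 19.7 and 23.8 CPM with shNC and 37.8, 40.6 and 39.7 CPM with shNUF2. The spread within shNC was the widest of the 10 genes in relative terms, with a coefficient of variation of 9.65%, and the groups were still separate. Its log2 fold change was 0.83 (SE 0.09, adjusted p = 3.02e-09). DNAJB9 (ENSG00000128590, chromosome 7, plus strand, 108569867 to 108574850), the J-domain cochaperone ERdj4 that keeps IRE1 inactive through BiP, had 39.0, 37.3 and 38.2 CPM with shNC and 48.5, 42.2 and 42.2 CPM with shNUF2. The first shNUF2 library was well above the other two. The log2 fold change was 0.22 (SE 0.07, adjusted p = 0.0117). Without shNUF2 replicate 1 it was 0.14 and no longer passed (edgeR adjusted p = 0.105).

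HERPUD1 (ENSG00000051108, chromosome 16, plus strand, 56932142 to 56944864) encodes a membrane protein of ER-associated degradation, the route that returns misfolded proteins to the proteasome. It had 162, 165 and 152 CPM with shNC and 155, 152 and 158 CPM with shNUF2. The libraries of the groups overlapped. Its log2 fold change was -0.05 with a 95% interval from -0.14 to 0.05 (edgeR adjusted p = 0.379). HERPUD1 holds both an ERSE-II and an ATF4 element in the 250 bases before its start. The sense-intronic transcripts AC012181.1 and AC012181.2 overlap it on the same strand and were not analysed here.

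The sensors moved in opposite directions. ERN1 (ENSG00000178607, chromosome 17, minus strand, 64039142 to 64130819) had 44.0, 42.6 and 42.0 CPM with shNC and 50.4, 48.2 and 50.0 CPM with shNUF2. The groups were separate but close, with a log2 fold change of 0.21 (SE 0.07, adjusted p = 0.00632). With limma on log2(FPKM + 1) the value was 0.14 (adjusted p = 0.0591), and with a pseudocount of 0.1 it was 0.17 (limma adjusted p = 0.058).

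ATF6 (ENSG00000118217, chromosome 1, plus strand, 161766320 to 161964070) had 124, 122 and 128 CPM with shNC and 97.0, 101 and 101 CPM with shNUF2. Every shNUF2 library was below every shNC library, and the log2 fold change was -0.32 (SE 0.05, adjusted p = 1.34e-06), which left 80.0% of the control level. XBP1 (ENSG00000100219, chromosome 22, minus strand, 28794555 to 28800597) encodes the factor that is activated by IRE1 splicing and had 182, 183 and 180.1 CPM with shNC and 137, 130.3 and 139 CPM with shNUF2. The groups were again separate. XBP1 fell to 74.6% of the control level (log2 fold change -0.42, SE 0.05, adjusted p = 5.70e-09), and it carries an ERSE close to its start. The annotation also lists XBP1P1, a pseudogene of XBP1, and AL391825.1, a pseudogene that overlaps ATF6 on the same strand. Sharing of reads with either was not examined.

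Levels were compared between genes on the deposited FPKM values, which are per length. With shNC the order was HSPA5 (470.0 ± 13.7 FPKM), CALR (245 ± 10.5), HSP90B1 (199 ± 0.899), PDIA4 (86.6 ± 0.943), XBP1 (60.7 ± 0.569), HERPUD1 (32.0 ± 1.40), SDF2L1 (21.1 ± 1.97), ATF6 (16.0 ± 0.394), DNAJB9 (15.2 ± 0.256) and ERN1 (3.99 ± 0.0802; SD, n = 3 for each). The libraries of all 9 pairs of neighbours in this order were separate, ATF6 and DNAJB9 by the least, at 15.7 to 16.5 and 15.0 to 15.5 FPKM. With shNUF2 SDF2L1 (36.7 ± 1.70 FPKM) stood above HERPUD1 (30.2 ± 0.508), and DNAJB9 (17.2 ± 1.27) above ATF6 (12.5 ± 0.389), while the other genes kept their places. HSPA5, CALR and HSP90B1 stood at places 41, 87 and 115 among all genes listed by mean FPKM with shNC and at places 22, 35 and 78 with shNUF2. The highest of the 10 levels was 118-fold above the lowest with shNC and 155-fold with shNUF2.

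**Figure D3:**
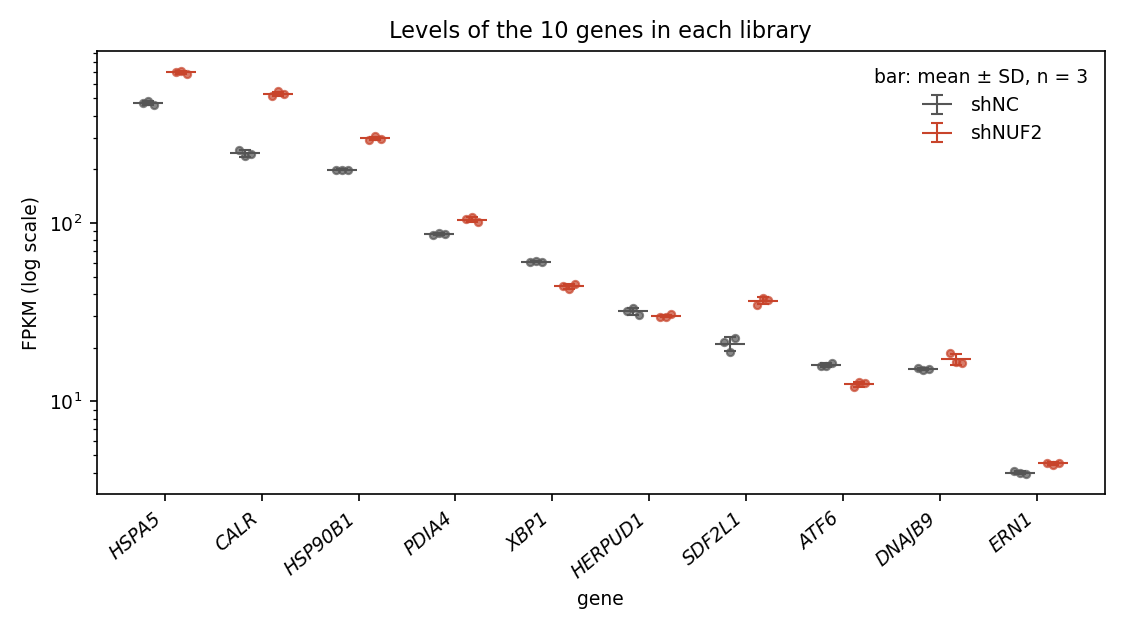
FPKM of the 10 genes in each library on a log axis, with the mean and SD of the 3 libraries of each group, ordered by the shNC mean. The shNUF2 libraries of HSPA5, CALR, HSP90B1, PDIA4, SDF2L1, DNAJB9 and ERN1 lie above the shNC libraries, those of XBP1 and ATF6 lie below, and those of HERPUD1 overlap them.

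Reads on the 10 genes made up 0.435%, 0.433% and 0.423% of all reads in the shNC libraries and 0.637%, 0.656% and 0.635% in the shNUF2 libraries. HSPA5, HSP90B1 and CALR supplied 79.8% to 80.2% of these reads with shNC and 86.5% to 86.8% with shNUF2. Ratios of 2 genes within a library do not depend on how libraries are scaled, and 4 were calculated after the values had been seen. The ratio of HSPA5 to XBP1 in FPKM was 7.79, 7.86 and 7.56 with shNC and 15.8, 16.6 and 15.0 with shNUF2, a 2.04-fold difference. That of HSPA5 to ATF6 was 29.4 ± 1.55 and 55.8 ± 2.07 (SD, n = 3 each). That of HSPA5 to HERPUD1 was 14.7 ± 0.216 and 23.1 ± 0.834, and that of CALR to HSPA5 was 0.522 ± 0.028 and 0.761 ± 0.0203. Because the pairs were picked in this way, the ratios restate the differences of the single genes and are given without a test.

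Other genes of the pathway were followed in 5 lists grouped by role, with 85 genes in all, of which 82 were tested. In these lists 34 genes were higher and 32 lower at an adjusted p under 0.05, where 33.9% and 33.8% of all genes tested were. The median log2 fold change of the lists was 0.05, against -0.01 for all genes tested. Of the other chaperones and folding enzymes, 18 of 19 were tested, 11 were higher and 5 lower, and the median log2 fold change was 0.44. The largest increase was that of ERO1A, the oxidase that drives disulfide formation, at 1.69 (SE 0.06, adjusted p = 6.74e-19), and the largest decrease that of SIL1, the nucleotide exchange factor of BiP, at -0.59 (SE 0.12, adjusted p = 7.22e-05). ERO1A was the 1 gene of this list beyond a log2 fold change of 1.

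Of the other sensors and transducers, 12 of 13 were tested, with 4 higher and 6 lower and a median of -0.13. CREB3L1, a membrane-bound relative of ATF6, was higher at 2.19 (SE 0.32, adjusted p = 1.26e-06) from a low level of 0.808 ± 0.326 CPM (SD, n = 3). Its call beyond a log2 fold change of 1 was lost with a filter of 1 CPM in every library and with limma on log2(FPKM + 1). MBTPS2, the site-2 protease that cleaves ATF6, fell to 39.2% of its control level (log2 fold change -1.35, SE 0.05, adjusted p = 5.49e-18). The log2 fold changes of MBTPS1, the site-1 protease, and of ATF6B, the paralog of ATF6, were -0.53 and -0.52, and that of EIF2AK3, which encodes PERK, was 0.54 (largest adjusted p = 1.83e-05, edgeR). These last 3 genes were chosen after their values were seen.

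Among 20 genes of ER-associated degradation, which removes misfolded proteins, 8 were higher, 8 were lower and 4 did not pass, with a median log2 fold change of 0.10. The values ran from -0.55 for FAF2 (SE 0.05, adjusted p = 1.56e-10) to 0.66 for SELENOS (SE 0.06, adjusted p = 1.62e-10), which both encode membrane-bound partners of the VCP segregase. Among 23 genes of the translocon and of vesicle transport, 8 were higher, 8 lower and 7 did not pass, with a median of -0.02. SEC61G, a channel subunit, was highest at 0.92 (SE 0.07, adjusted p = 4.38e-12) and SEC63, which brings BiP to the channel, was lowest at -0.48 (SE 0.05, adjusted p = 5.61e-10). Neither list had a gene beyond a log2 fold change of 1 in either direction.

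In the list of the PERK arm and its targets, 9 of 10 genes were tested, 3 were higher and 5 lower, and the median log2 fold change was -0.37. The gene of PERK itself, EIF2AK3, is counted with the sensors. Whether these changes came through PERK was not tested. ATF3, a stress-induced factor, was higher at 2.07 (SE 0.09, adjusted p = 2.26e-17) and PPP1R15A, the phosphatase subunit GADD34, at 1.76 (SE 0.06, adjusted p = 8.68e-20), whereas CHAC1, a glutathione-degrading enzyme, was lower at -3.06 (SE 0.15, adjusted p = 3.93e-16). ATF4 and DDIT3, which encodes CHOP, had log2 fold changes of -0.70 (adjusted p = 4.19e-14, edgeR) and 0.00 (adjusted p = 0.996), and both were named after their values were seen.

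**Figure D4:**
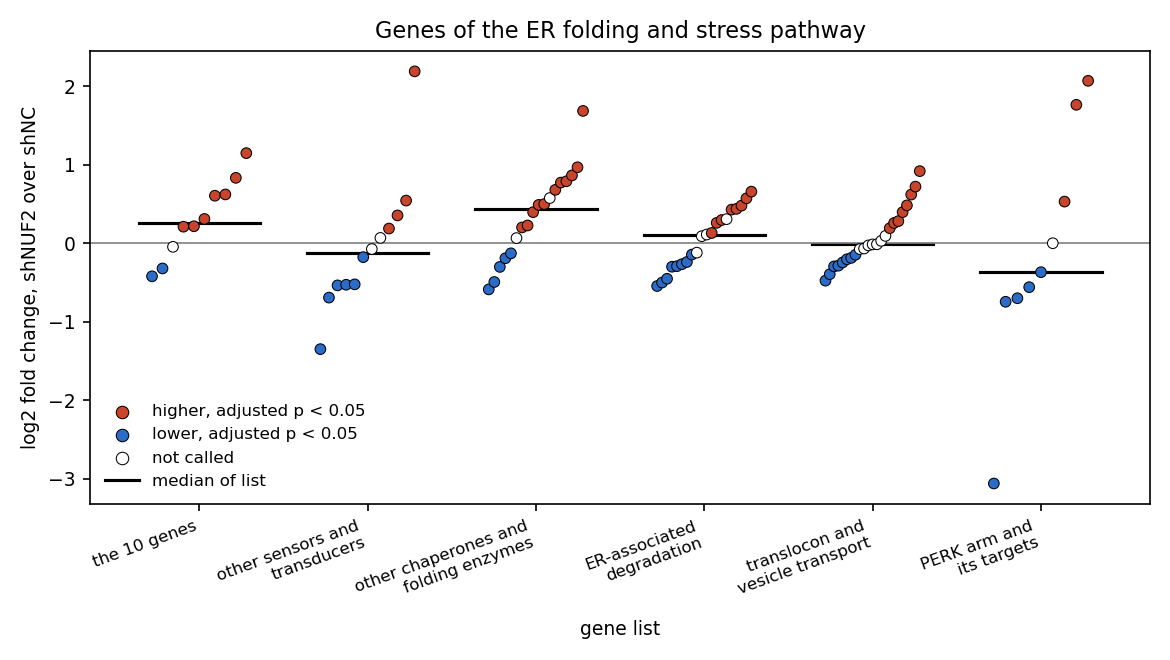
Log2 fold change of every tested gene in the 10 genes and in 5 other lists of the ER folding and stress pathway, with the median of each list as a black line. The median of the other chaperones and folding enzymes is 0.44, that of the PERK arm is -0.37, and those of the remaining lists lie between -0.13 and 0.26.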

How the data were processed

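RNA libraries of OVCAR3 cells were made with a stranded mRNA kit and sequenced on an Illumina NovaSeq instrument. Per the labels, the processing used cutadapt, HISAT and HTSeq with GRCh38.p13, and versions and settings are not given in the sources used here. The authors deposited raw read counts per gene for 19973 genes, and FPKM values, which the authors scaled by gene length and library total. The 12 deposited per-sample columns were all used.

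Counts were compared with edgeR 4.0.16 in R 4.3.3 (filterByExpr, TMM, quasi-likelihood test without covariates, Benjamini-Hochberg adjustment over 12874 genes). SE is the log2 fold change divided by the root of the F statistic. Alternatives were other scalings and filters, DESeq2 1.42.0, limma 3.58.1 on log2 FPKM with pseudocounts of 1 and 0.1, a replicate block and each library left out. The scripts were tested on simulated data.

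The members and lists were chosen with earlier results of these data known. Outside the 10 genes, NUF2 and the cell type markers, genes were named from each list by a rule. The rule took those with the largest increase and decrease at an adjusted p under 0.05 and those beyond a log2 fold change of 1 (at most 5). Further genes are marked as chosen afterwards. C12orf73 is named because it overlaps HSP90B1, and other transcripts and pseudogenes because they overlap a member or are annotated as its pseudogenes. Proteins and their retention motifs were not analysed here. Depth was at least 13057534 reads per library, and 3 libraries per group limit the precision. Calculations outside R used Python 3.11.15, scipy 1.17.1 and pandas 2.3.3.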

Additional observations from a re-analysis of the deposited data

How the results depend on the processing

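Over 15 alternatives, 147 of the 150 values of the 10 genes kept their direction and their side of the threshold, and 0 reversed. The 3 that did not are those given above for DNAJB9 and ERN1, whose log2 fold changes ranged from 0.14 to 0.25 and from 0.14 to 0.23. CALR stayed between 1.11 and 1.18 and HERPUD1 between -0.09 and -0.02. Among the counts of calls by list, 4 moved by more than 1.5 times, all of them counts beyond a log2 fold change of 1. CREB3L1, the 1 higher sensor gene, was not called with a filter of 1 CPM in every library or with limma on log2(FPKM + 1), which gave 0. It is under 1 CPM in 2 of the 3 shNC libraries, and its FPKM of 0.203 with shNC and 0.908 with shNUF2 is below the pseudocount. Without shNC replicate 3 the translocon list had 1 such gene in place of 0 (range 0 to 1 with each library left out), and without a filter the PERK arm had 2 lower genes in place of 1. The same-numbered libraries did not deviate together (correlations of 0.02, 0.00 and -0.03 for replicates 1, 2 and 3), and with the replicate block 1207 genes were higher and 536 lower beyond a log2 fold change of 1, against 1212 and 536 without it. No call of the 10 genes changed with the replicate block, where DNAJB9 was at 0.21 (edgeR adjusted p = 0.0121) and ERN1 at 0.21 (adjusted p = 0.00822). Over all genes, limma on log2(FPKM + 1) called 430 higher and 206 lower by the same rule, and a filter of 1 CPM in every library 756 and 397. The order of levels was the same count of 9 separate neighbours with TMM-scaled FPKM.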

Other observations

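The deposited table also lists the Gene Ontology terms of each gene, and 6 of the 10 genes (CALR, DNAJB9, HSP90B1, HSPA5, PDIA4 and SDF2L1) carry the term endoplasmic reticulum lumen. Among the other 198 tested genes with this term, 92 (46.5%) were higher and 71 (35.9%) lower at an adjusted p under 0.05 by edgeR, with a median log2 fold change of 0.12. By the same rule 33.9% of all genes tested were higher and 33.8% lower, with a median of -0.01. Among the 790 other tested genes with the term endoplasmic reticulum membrane, 278 (35.2%) were higher and 285 (36.1%) lower, with a median of 0.01. The membrane term is carried by 9 of the 10 genes, including 5 of those 6. Among the 69 other tested genes with the term response to endoplasmic reticulum stress 42.0% were higher and 36.2% lower, and among the 41 with the term endoplasmic reticulum unfolded protein response 39.0% and 36.6%, with a median of 0.07 for both. Whether the terms differ was not tested, the genes of a term are not independent, and the terms were chosen after the values of the 10 genes had been seen.

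The receptors that return lumenal chaperones from the Golgi to the ER belong to the list of translocon and transport genes and had log2 fold changes of 0.62 for KDELR1 (SE 0.04, adjusted p = 2.17e-12, edgeR), 0.72 for KDELR3 (SE 0.07, adjusted p = 5.52e-10) and -0.02 for KDELR2 (SE 0.04, adjusted p = 0.753). KDELR2 had 319.8 ± 2.30 CPM with shNC and 316 ± 10.9 with shNUF2 (SD, n = 3 each). These genes were chosen after their values were seen.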
